A study of Homo sapiens with 4 samples.

Results

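The 47 genes described here encode the machinery of mitosis: mitotic kinases, cyclin-dependent kinase 1 with its cyclins, spindle checkpoint proteins, kinesins, centromere and kinetochore proteins, and proteins of cytokinesis. They were picked by symbol as the rows of the deposited count table whose annotation carries a member's name. All 47 were found among 63241 genes in the table, and all 47 passed the filter on low counts that left 18781 genes for testing, so no member is missing from the counts below.

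The RNA came from FT190, a human line grown in RPMI with serum, which the labels call ovarian epithelial and wild type in genotype, and which is known as an immortalised fallopian tube line. Cells labelled shSMARCA4 (treatment label SMARCA4_sh1) expressed 1 short hairpin RNA against SMARCA4, an ATPase that drives SWI/SNF chromatin remodelling, and cells labelled Ctrl carried the PLKO control vector, with 2 libraries in each group. Any effect of that single hairpin on other transcripts cannot be told apart from the effect of SMARCA4 depletion. No label tells whether libraries of a group stem from separate cultures; the p-values therefore rest on library-to-library spread that may be technical.

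Mitosis is driven by CDK1 bound to cyclins, together with the Polo-like and Aurora kinases. Kinesins and microtubule-associated proteins build the spindle, the kinetochore ties chromosomes to it, and the spindle assembly checkpoint holds anaphase back until all kinetochores are attached. Most of these genes are transcribed late in the cell cycle, under the MuvB complexes and FOXM1, so in cultured cells their RNA levels follow the share of cells in G2 and M phase as well as the output of each cell. In bulk RNA, fewer cells in mitosis and less RNA per cell cannot be told apart.

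Total counts were 28536665 and 27137414 in the shSMARCA4 libraries and 33641343 and 32618516 in the Ctrl libraries. SMARCA4 stood at 34.0 and 36.3 CPM (counts per 1000000, scaled between libraries) in the shSMARCA4 libraries, against 171 and 162 CPM in the Ctrl libraries, so the targeted transcript went with the labels. Of 10 secretory cell markers, the keratins KRT7, KRT8 and KRT18, WT1 and the tubal transcription factor PAX8 stood above 1 CPM in all 4 libraries. PAX8 had 63.2 and 63.5 CPM in shSMARCA4 and 57.4 and 59.8 CPM in Ctrl. The 3 keratins were lower in shSMARCA4, KRT7 at 307 and 302 CPM against 630.5 and 561 CPM in Ctrl. WT1 was higher, at 18.4 and 18.0 CPM against 14.8 and 13.8 CPM. EPCAM, MUC16, OVGP1 and ESR1 stayed under 1 CPM in each library, and PAX2 had a count of 0. The summed secretory list held 1258 and 1261 CPM in shSMARCA4 libraries against 1848 and 1744 CPM in Ctrl. Ciliated markers summed to 315 and 316 CPM in shSMARCA4 against 431 and 395 CPM in Ctrl, nearly all TUBB4B, with FOXJ1 at or near 0. The 8 immune markers summed to 23.6 and 25.2 CPM in shSMARCA4 against 23.3 and 25.7 CPM in Ctrl, nearly all CD68, with CD3D and CD3E at or near 0, and the 6 endothelial markers to 1.001 and 1.34 CPM in shSMARCA4 against 1.13 and 1.18 CPM in Ctrl, with CDH5 at or near 0. The 9 fibroblast and muscle markers summed to 1679 and 1810 CPM in shSMARCA4 libraries against 2255 and 2308 CPM in Ctrl, mostly from COL1A1, with DCN at or near 0. LUM had 107 and 109.5 CPM in shSMARCA4 against 219 and 237 CPM in Ctrl. ACTA2 had 12.15 and 14.5 CPM against 39.85 and 33.25 CPM, and PDGFRB 15.2 and 16.7 CPM against 22.9 and 28.05 CPM. PDGFRA and MYH11 overlapped between the groups. The part of these marker shifts in the results below was not tested.

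As a set, the mitotic genes leaned lower in shSMARCA4 cells, by small amounts. Of 47 tested, 18 fell (38.3%), 4 rose (8.51%) and 25 did not pass the test; over all genes tested, 15.8% fell and 13.8% rose. A gene is said to have risen or fallen where edgeR's quasi-likelihood test gave a Benjamini-Hochberg adjusted p under 0.05 over all genes tested. The median log2 fold change of shSMARCA4 over Ctrl cells was -0.10 for the 47 genes and -0.005 for all genes tested, and 36 of the 47 had a value below 0. In 34 of the 47 members both shSMARCA4 libraries lay below both Ctrl libraries, and in 9 of 47 both lay above. Among the 18781 genes tested, 6286 (33.5%) lay below in this way and 6090 (32.4%) above. Of the 22 members called, 5 changed by 1.2-fold or more, against 3950 of 5572 genes called over the whole table. These 5 were INCENP, ECT2, ANLN and KIF20A, which fell, and CENPA, which rose. Smaller changes can be called in genes of high count, and most members are abundant. The part of level in this contrast was not tested. Together the 47 genes took 1.06% and 1.035% of all counts in the shSMARCA4 libraries and 1.09% and 1.08% in the Ctrl libraries.

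With 1 library left out, the spread was estimated from the other group alone. Ctrl libraries differed from each other more than shSMARCA4 libraries did (chi-square over its degrees of freedom 6.33 and 1.88). Fewer members were called without either shSMARCA4 library and more without either Ctrl library, and calls over all genes moved the same way. Whether such a change of call came from the values of the library left out was not tested. The members' median log2 fold change was -0.122 and -0.076 without shSMARCA4 library 1 and 2. It was -0.078 and -0.124 without Ctrl library 1 and 2. With library totals in place of trimmed-mean scaling, 14 members fell and 6 rose, the members' median was -0.053 beside 0.045 for all genes, and calls of higher level made up 59.5% of those over all genes, against 46.6% with the main scaling. 7 genes, INCENP, ECT2, ANLN, KIF20A, NDC80, PLK1 and PRC1, fell in the main test and in all 13 alternatives run, while none of the 4 rises held in all of them. Where genes of low count were kept, 9 members fell (with BUB3 and TPX2 beside those 7) and 0 rose. Of all 35109 genes then tested, 1784 fell and 1403 rose. All other member calls of the main test were lost in that setting, which is not repeated below for each gene.

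**Figure D1:**
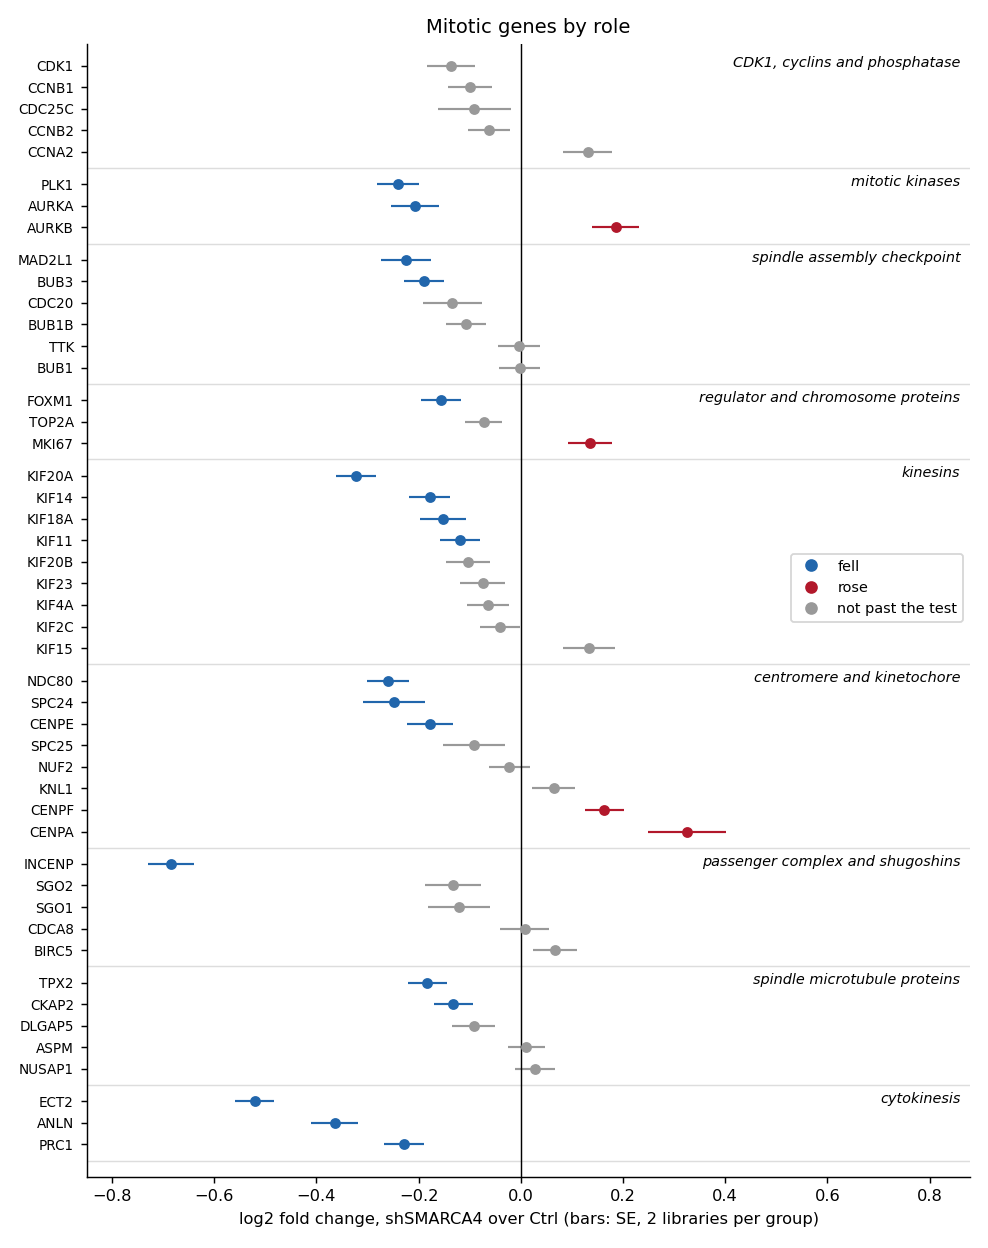
Log2 fold change of shSMARCA4 over Ctrl cells for each of the 47 mitotic genes, grouped by role, with bars of 1 standard error (2 libraries in each group). Blue genes fell, red genes rose and grey genes did not pass the test; INCENP (-0.69) and ECT2 (-0.52) lie farthest to the left and CENPA (0.33) farthest to the right.

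Levels were compared between genes as CPM per kilobase of the exon length in the table. By this measure the mitotic genes were abundant in both groups: 31 of 47 in shSMARCA4 cells and 30 of 47 in Ctrl cells lay at or above the 90th percentile of genes tested, and the lowest, SGO1, lay at the 67.1st percentile in shSMARCA4 and the 68.6th in Ctrl. The most abundant transcript per kilobase in shSMARCA4 libraries was CCNB1, at 183 and 175 CPM per kb, against 197 and 187 CPM per kb in Ctrl libraries. ANLN came next in shSMARCA4 libraries, at 163 and 157 CPM per kb, and first in Ctrl libraries, at 214 and 198 CPM per kb. Raw counts of members ran from 645 to 28438 in shSMARCA4 libraries and from 641 to 32809 in Ctrl libraries.

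On hg38, with positions from the deposited table, INCENP (ENSG00000149503.13) spans chr11:62124011-62153169, ECT2 (ENSG00000114346.14) chr3:172750685-172821473, ANLN (ENSG00000011426.11) chr7:36389862-36453791 and KIF20A (ENSG00000112984.12) chr5:138179112-138187723. The counts cover the exons of each gene.

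All 3 cytokinesis genes outside the kinesin family fell. ECT2, the exchange factor that activates RhoA at the cell equator, had 199.95 and 199.1 CPM in the shSMARCA4 libraries, against 288 and 285 CPM in the Ctrl libraries. The groups lay far apart relative to the spread within each, and the fall was 1.43-fold (log2 -0.52 ± 0.038 SE, edgeR adjusted p = 3.04e-05). ANLN, which encodes anillin, the scaffold that links actin, myosin and septins in the contractile ring, had 763 and 735 CPM in the shSMARCA4 libraries, against 1000.3 and 927 CPM in the Ctrl libraries, a 1.29-fold fall (-0.36 ± 0.046, edgeR adjusted p = 5.35e-04). The Ctrl libraries differed from each other in ANLN by more than the shSMARCA4 libraries did, and the groups did not overlap. PRC1, which bundles antiparallel microtubules of the central spindle, stood at 249.8 and 243 CPM in shSMARCA4 and at 289 and 289 CPM in Ctrl (-0.23 ± 0.039, edgeR adjusted p = 0.00230). Reads of PRC1 cannot be separated from those of other loci with certainty: in the GENCODE release 29 models, exons of AC068831.7, a gene on the same strand cover 57.6% of its exon bases and those of PRC1-AS1, on the opposite strand, 7.35%.

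The largest fall of all members, in the main fit, was in the chromosomal passenger complex, and in 1 of its 4 subunits. This complex corrects faulty kinetochore attachments and later moves to the midzone; INCENP is its scaffold, AURKB its kinase, and BIRC5 (survivin) and CDCA8 (borealin) bring it to centromeres. INCENP had 60.0 and 57.9 CPM in the shSMARCA4 libraries, against 93.6 and 96.0 CPM in the Ctrl libraries. INCENP thus fell 1.61-fold (-0.69 ± 0.045, edgeR adjusted p = 1.92e-05), with no other member past 1.5-fold. AURKB rose, with 78.7 and 75.2 CPM in the shSMARCA4 libraries against 68.3 and 67.1 CPM in the Ctrl libraries (0.19 ± 0.046, edgeR adjusted p = 0.0152). Neither of the loading subunits passed the test: BIRC5 had 162 and 156 CPM in shSMARCA4 and 154 and 149.7 CPM in Ctrl (0.07 ± 0.043), and CDCA8 had 116 and 109 CPM in shSMARCA4 and 114 and 110.02 CPM in Ctrl (0.01 ± 0.048). The AURKB call was lost without shSMARCA4 library 1 (log2 0.16), with DESeq2 (DESeq2 adjusted p = 0.0613) and where genes of low count were kept (edgeR adjusted p = 0.0819).

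The shugoshins SGO1 and SGO2, which shield centromeric cohesin until anaphase, had log2 fold changes of -0.12 ± 0.060 and -0.13 ± 0.055, neither past the test. SGO2 held 81.6 and 77.0 CPM in shSMARCA4 libraries, against 90.9 and 83.2 CPM in Ctrl libraries. Both shSMARCA4 libraries lay below both Ctrl libraries. The log2 fold change of SGO2 was -0.20 without Ctrl library 2 and -0.06 without Ctrl library 1.

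**Figure D2:**
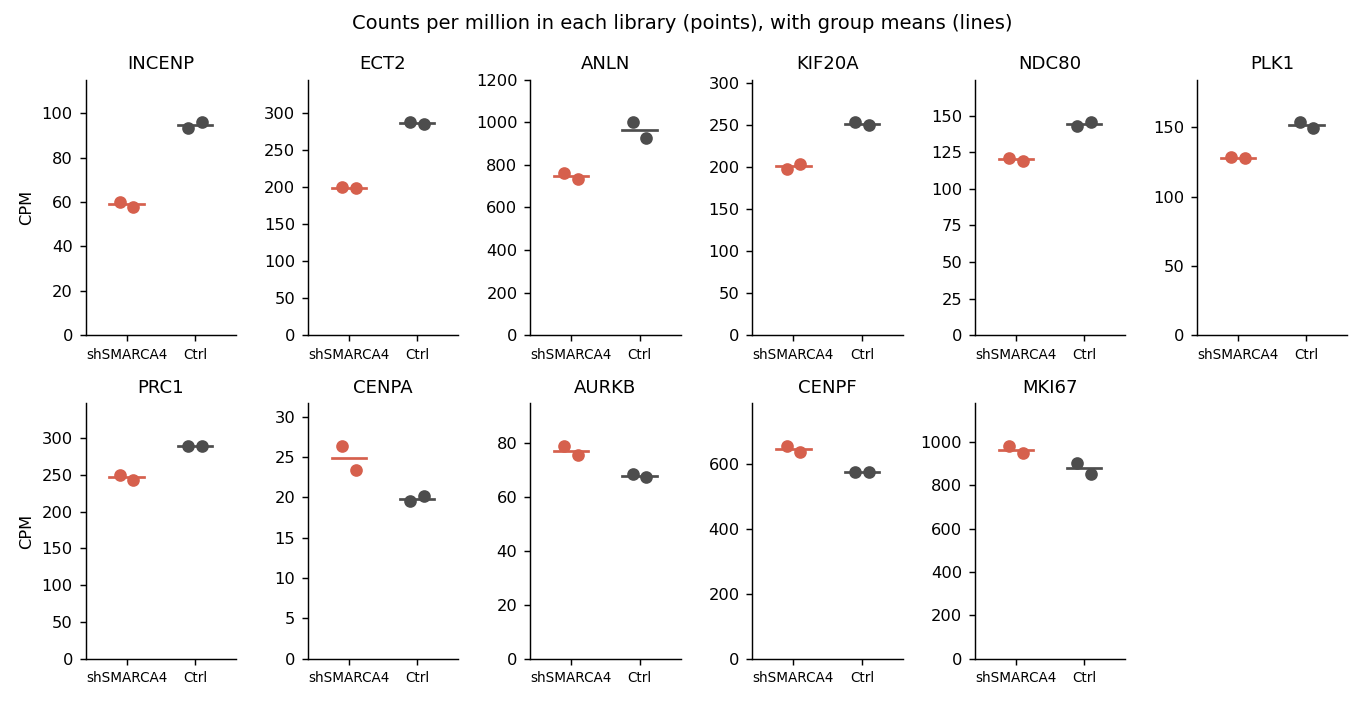
CPM (vertical axes, each from 0) in the 2 shSMARCA4 and 2 Ctrl libraries for the 7 genes that fell in the main test and in all 13 alternatives and for the 4 genes that rose. Points are libraries and lines are group means. No panel shows overlap between the groups, but the genes were drawn because they were called. Over all genes tested, both shSMARCA4 libraries lay below both Ctrl libraries in 33.5% and above in 32.4%. Among the genes drawn, INCENP shows the widest gap relative to its level.

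Of 9 kinesins, 4 fell and 0 rose, and 8 had values below 0. KIF20A, which carries the passenger complex to the central spindle, had 198 and 204 CPM in the shSMARCA4 libraries, against 253 and 249.8 CPM in the Ctrl libraries (-0.32 ± 0.039, edgeR adjusted p = 4.30e-04). KIF14, a partner of PRC1 and citron kinase in the midbody, had 136 and 134 CPM in shSMARCA4 and 154 and 151 CPM in Ctrl (-0.18 ± 0.040, edgeR adjusted p = 0.00977). Both genes act at the end of mitosis, and the fall of KIF20A was the deeper in value. KIF18A, which damps chromosome movements at the metaphase plate, fell by 0.15 ± 0.045 and KIF11, the motor that pushes spindle poles apart, by 0.12 ± 0.039 on the log2 scale (edgeR adjusted p = 0.0305 and 0.0465). The calls of KIF14 (log2 -0.181 and -0.168), KIF18A (-0.147 and -0.149) and KIF11 (-0.134 and -0.097) were lost without shSMARCA4 library 1 or 2. KIF18A also lost its call with library totals (edgeR adjusted p = 0.117) and with DESeq2 (0.155). KIF11 lost it with RLE factors (edgeR adjusted p = 0.0606), upper-quartile factors (0.0559), library totals (0.181) and DESeq2 (0.171), so that 7 of 13 alternatives ended this call.

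The remaining kinesins did not pass the test. KIF23, the motor subunit of centralspindlin, stood at 284 and 278 CPM in shSMARCA4 and 306 and 286 CPM in Ctrl (-0.07 ± 0.044). KIF20B (-0.10 ± 0.043), the microtubule depolymerase KIF2C (-0.04 ± 0.039) and the chromokinesin KIF4A (-0.06 ± 0.041) were close to it. KIF15, which can stand in for KIF11 in spindle assembly, was the one kinesin with a value above 0 (0.13 ± 0.051, edgeR adjusted p = 0.0806), with 60.8 and 57.2 CPM in shSMARCA4 against 53.0 and 54.7 CPM in Ctrl. Without Ctrl library 2 the log2 fold changes were -0.124 for KIF23, -0.137 for KIF20B and 0.155 for KIF15. Without Ctrl library 1 they were -0.021, -0.064 and 0.115. With library totals KIF15 passed as higher (edgeR adjusted p = 0.0225).

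Among 8 centromere and kinetochore genes, 3 fell and 2 rose. The 4 subunits of the NDC80 complex, the main microtubule coupler of the kinetochore, did not move alike in value. NDC80 had 121 and 119 CPM in the shSMARCA4 libraries, against 143 and 146 CPM in the Ctrl libraries (-0.26 ± 0.041, edgeR adjusted p = 0.00152). SPC24 had 26.1 and 25.3 CPM in shSMARCA4 and 31.2 and 29.8 CPM in Ctrl (-0.25 ± 0.060, edgeR adjusted p = 0.0135). Those subunits fell, while their direct partners gave values nearer to 0 and did not pass the test, NUF2 at -0.02 ± 0.040 and SPC25 at -0.09 ± 0.061. Whether partners differ from each other in fold change was not tested. CENPE, the kinesin that carries chromosomes to the plate, had 206 and 198 CPM in shSMARCA4 and 235 and 222 CPM in Ctrl (-0.18 ± 0.045, edgeR adjusted p = 0.0173). The calls of SPC24 (log2 -0.263 and -0.227) and CENPE (-0.201 and -0.146) were lost without shSMARCA4 library 1 or 2. That of SPC24 was also lost with DESeq2 (DESeq2 adjusted p = 0.0765).

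CENPA, the histone H3 variant that marks centromeres, had 26.4 and 23.4 CPM in the shSMARCA4 libraries, against 19.5 and 20.2 CPM in the Ctrl libraries. It was the largest rise among members, at 1.25-fold (0.33 ± 0.077, edgeR adjusted p = 0.0119), though the shSMARCA4 libraries differed from each other by more than the Ctrl libraries did. CENPF, a large protein of the outer kinetochore, had 655 and 636 CPM in shSMARCA4 and 577 and 576 CPM in Ctrl (0.16 ± 0.038, edgeR adjusted p = 0.0113). KNL1, the scaffold that recruits the BUB proteins, stood at 0.06 ± 0.042 and did not pass. The call of CENPA was lost without shSMARCA4 library 1 (log2 0.243), and that of CENPF without shSMARCA4 library 1 or 2 (0.149 and 0.185). Both calls were also lost where genes of low count were kept (edgeR adjusted p = 0.073 for CENPA and 0.0537 for CENPF).

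Of the 3 mitotic kinases, 2 fell and 1 rose. PLK1, which acts in centrosome maturation, spindle assembly and cytokinesis, had 128 and 128 CPM in the shSMARCA4 libraries, against 154 and 149.5 CPM in the Ctrl libraries (-0.24 ± 0.041, edgeR adjusted p = 0.00227). AURKA, the kinase of spindle poles, had 169 and 163 CPM in shSMARCA4 and 198 and 184 CPM in Ctrl (-0.21 ± 0.047, edgeR adjusted p = 0.0102). PLK1 and AURKA fell while AURKB, given above with its complex, rose. The AURKA call was lost without shSMARCA4 library 2 (log2 -0.183) and where genes of low count were kept (edgeR adjusted p = 0.0759). In GENCODE release 29, 11.6% of the exon bases of PLK1 are shared with a transcript of the opposite strand.

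CDK1, its cyclins CCNA2, CCNB1 and CCNB2, and CDC25C did not pass the test. WEE1 and PKMYT1, which also control CDK1 and are not members, fell. Their log2 fold changes were -0.26 ± 0.066 and -0.31 ± 0.071 (edgeR adjusted p = 0.0175 and 0.0107). CDK1 had 223 and 208 CPM in the shSMARCA4 libraries, against 242 and 232 CPM in the Ctrl libraries, just outside the threshold (-0.14 ± 0.047, edgeR adjusted p = 0.0552). CCNB1 had 368 and 353 CPM in shSMARCA4 and 396 and 376 CPM in Ctrl (-0.10 ± 0.043), and CCNB2 stood at -0.06 ± 0.041. The B-type cyclins, which bind CDK1 in mitosis, had values below 0, and CCNA2, the cyclin of S and G2 phase, had one above 0 (0.13 ± 0.048, edgeR adjusted p = 0.0682), with 235 and 228 CPM in shSMARCA4 against 220 and 203 CPM in Ctrl. CDC25C, the phosphatase that activates CDK1, stood at -0.09 ± 0.071. Without Ctrl library 1 the log2 fold changes were -0.103 for CDK1, -0.166 for CDC25C, -0.056 for CCNB1 and 0.195 for CCNA2. Without Ctrl library 2 they were -0.166, -0.008, -0.137 and 0.074. CCNA2 rose with upper-quartile factors (edgeR adjusted p = 0.0259), with library totals (0.0100) and among protein-coding genes alone (0.0473). CDK1 fell with limma-voom (limma-voom adjusted p = 0.0493).

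Of 6 spindle checkpoint genes, 2 fell and 0 rose, and all 6 values lay below 0 in the main fit, though TTK and BUB1 turned sign under other scalings. MAD2L1, which binds and blocks CDC20 while kinetochores are unattached, had 85.2 and 80.1 CPM in the shSMARCA4 libraries, against 98.7 and 94.5 CPM in the Ctrl libraries (-0.23 ± 0.049, edgeR adjusted p = 0.00798). BUB3, which docks the BUB kinases on kinetochores, had 239 and 238 CPM in shSMARCA4 and 277 and 268 CPM in Ctrl (-0.19 ± 0.039, edgeR adjusted p = 0.00655). The checkpoint kinases themselves gave values near 0, TTK at -0.004 ± 0.041 and BUB1 at -0.002 ± 0.040, both with overlapping groups. BUB1B (-0.11 ± 0.039) and CDC20 (-0.13 ± 0.058), the activator of the anaphase-promoting complex, did not pass. CDC20 held 174 and 166 CPM in the shSMARCA4 libraries, against 197 and 175 CPM in the Ctrl libraries, which lay farther apart. The MAD2L1 call was lost without shSMARCA4 library 2 (log2 -0.182) and the BUB3 call without shSMARCA4 library 1 or 2 (-0.185 and -0.186). Without Ctrl library 1 or 2 the log2 fold changes were -0.041 and -0.217 for CDC20 and -0.109 and -0.102 for BUB1B.

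FOXM1, the transcription factor of late cell-cycle genes, fell, with 195 and 192 CPM in the shSMARCA4 libraries against 213 and 218 CPM in the Ctrl libraries (-0.16 ± 0.039, edgeR adjusted p = 0.0157). MKI67, which encodes the proliferation marker Ki-67 that coats mitotic chromosomes, rose, with 982 and 949 CPM in shSMARCA4 against 904 and 854 CPM in Ctrl (0.14 ± 0.043, edgeR adjusted p = 0.0410). TOP2A, the topoisomerase that untangles sister chromatids, stood at -0.07 ± 0.037 and did not pass. FOXM1 and MKI67, both in wide use as markers of proliferation, moved in opposite directions. The FOXM1 call was lost without shSMARCA4 library 1 or 2 (log2 -0.162 and -0.145), with library totals (edgeR adjusted p = 0.0590) and with DESeq2 (DESeq2 adjusted p = 0.0597). The MKI67 call was lost without shSMARCA4 library 1 or 2 (log2 0.118 and 0.159) and with DESeq2 (DESeq2 adjusted p = 0.0760). It was also lost where genes of low count were kept (edgeR adjusted p = 0.140).

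Of 5 spindle microtubule proteins, 2 fell. TPX2, the activator of AURKA on spindle microtubules, had 407 and 397 CPM in the shSMARCA4 libraries, against 458 and 455 CPM in the Ctrl libraries (-0.18 ± 0.038, edgeR adjusted p = 0.00652). CKAP2, a spindle-stabilising protein, fell by 0.13 ± 0.038 on the log2 scale (edgeR adjusted p = 0.0272). DLGAP5 (-0.09 ± 0.042), which stabilises kinetochore fibres, ASPM (0.01 ± 0.037), a protein of spindle poles, and NUSAP1 (0.03 ± 0.039), a microtubule bundler, did not pass, and 62.2% of the exon bases of NUSAP1 lie in exons of another gene of the same strand in GENCODE release 29. The calls of TPX2 (log2 -0.195 and -0.164) and CKAP2 (-0.132 and -0.125) were lost without shSMARCA4 library 1 or 2. That of CKAP2 was also lost with library totals (edgeR adjusted p = 0.110) and DESeq2 (DESeq2 adjusted p = 0.113).

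Ratios of counts within a library do not depend on scaling between libraries. They showed unequal shifts between paired genes, of which some pairs are subunits of 1 complex and others are not. The pairs were chosen after the values were seen, and with 2 libraries against 2 an exact permutation test cannot pass a threshold of 0.05, so they are given as a description. Counts of INCENP per count of AURKB were 0.762 and 0.769 in the shSMARCA4 libraries, against 1.37 and 1.43 in the Ctrl libraries. INCENP per CDCA8 was 0.516 and 0.531 in shSMARCA4 and 0.819 and 0.872 in Ctrl. Relative to both partners, INCENP was lower in each shSMARCA4 library than in either Ctrl library. ECT2 per KIF23 was 0.704 and 0.717 in shSMARCA4 and 0.940 and 0.996 in Ctrl, and AURKA per AURKB was 2.14 and 2.17 in shSMARCA4 and 2.90 and 2.75 in Ctrl. NDC80 per NUF2 was 1.001 and 0.980 in the shSMARCA4 libraries, against 1.15 and 1.19 in the Ctrl libraries, and CCNB1 per CCNA2 was 1.57 and 1.55 in shSMARCA4 against 1.80 and 1.86 in Ctrl. SPC24 per SPC25 was 0.865 and 0.904 in the shSMARCA4 libraries, against 0.999 and 0.970 in the Ctrl libraries. The groups did not overlap in any of these ratios.

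**Figure D3:**
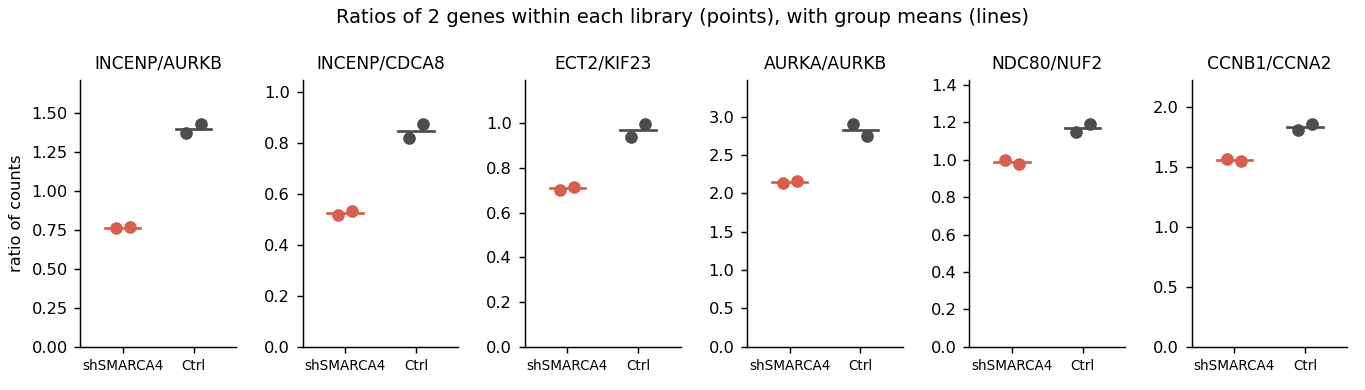
Ratio of the raw counts of 2 genes (vertical axes, each from 0) within each of the 2 shSMARCA4 and 2 Ctrl libraries, with group means as lines. INCENP per AURKB averages 0.766 in shSMARCA4 and 1.40 in Ctrl libraries, the widest gap in fold (1.83) of the 6 pairs drawn.

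The promoters of these genes share sequence features that the choice by symbol did not use. The cell-cycle genes homology region (CHR), searched as TTTGAA on both strands, is the element through which MuvB complexes bind late cell-cycle genes, and the CCAAT box, searched as CCAAT on both strands, is bound by NF-Y. RefSeq windows of GRCh38.p14 from 250 bases before to 50 after a start were matched for 40 members. RefSeq starts can differ from those of the counted transcripts. For AURKB, PLK1 and NUSAP1 the windows with matches lay inside the span of the counted gene. A CHR match stood in 29 of these 40 genes (72.5%), against 1660 of 11877 genes tested that have a window, 18.2% of all genes with one and 40.2% of 107 genes of the other cell-cycle lists below. A CCAAT match stood in 32 of the 40 (80.0%), against 42.6% of genes tested, 39.7% of all genes and 60.7% of the other lists. Over all 35116 windows, counted singly, the shares were 15.2% for the CHR and 34.6% for CCAAT. The CHR share was 10 of 14 among members that fell, 3 of 4 among those that rose and 16 of 22 among those not past the test. The member that rose without a CHR match was AURKB, whose windows do not reach the start of the counted gene. A match is only an occurrence of these letters, and no binding was measured.

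Promoter stretches are shown for the 4 members with the deepest falls and for 3 of the 4 that rose, chosen after their values were seen. Each runs 5′ to 3′ on the strand of the gene, from 150 bases before the most upstream RefSeq start to 50 after it, with matches to CHR or CCAAT on either strand in capitals. The INCENP stretch is chr11:62123861-62124060 (+), that of ECT2 chr3:172750576-172750775 (+), that of ANLN chr7:36389712-36389911 (+) and that of KIF20A chr5:138178962-138179161 (+). For the genes that rose they are chr17:8210200-8210399 (-) for AURKB, chr2:26785906-26786105 (+) for CENPA and chr10:128126374-128126573 (-) for MKI67. That of AURKB lies inside the span of the counted gene.
INCENP: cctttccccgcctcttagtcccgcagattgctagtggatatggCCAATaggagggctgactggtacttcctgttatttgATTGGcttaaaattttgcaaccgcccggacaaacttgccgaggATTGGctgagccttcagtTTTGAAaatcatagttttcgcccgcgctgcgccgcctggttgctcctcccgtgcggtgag
ECT2: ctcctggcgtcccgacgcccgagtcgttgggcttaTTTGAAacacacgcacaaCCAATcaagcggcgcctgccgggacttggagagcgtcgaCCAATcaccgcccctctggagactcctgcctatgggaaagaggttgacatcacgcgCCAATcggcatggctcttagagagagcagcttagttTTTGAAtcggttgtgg
ANLN: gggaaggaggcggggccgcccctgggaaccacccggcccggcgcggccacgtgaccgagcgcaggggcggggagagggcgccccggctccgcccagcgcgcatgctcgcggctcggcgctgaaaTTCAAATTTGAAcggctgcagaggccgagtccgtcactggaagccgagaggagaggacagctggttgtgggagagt
KIF20A: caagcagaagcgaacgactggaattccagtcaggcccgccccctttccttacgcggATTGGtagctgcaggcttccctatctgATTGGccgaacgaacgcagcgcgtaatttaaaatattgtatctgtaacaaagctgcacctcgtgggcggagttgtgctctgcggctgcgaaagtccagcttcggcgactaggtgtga
AURKB: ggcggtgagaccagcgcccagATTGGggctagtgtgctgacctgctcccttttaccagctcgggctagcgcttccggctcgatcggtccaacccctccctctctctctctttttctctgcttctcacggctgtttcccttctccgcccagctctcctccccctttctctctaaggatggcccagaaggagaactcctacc
CENPA: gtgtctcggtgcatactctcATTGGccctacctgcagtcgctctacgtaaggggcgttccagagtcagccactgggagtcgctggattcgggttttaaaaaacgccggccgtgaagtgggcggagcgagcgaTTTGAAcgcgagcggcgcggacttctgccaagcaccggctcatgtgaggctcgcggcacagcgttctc
MKI67: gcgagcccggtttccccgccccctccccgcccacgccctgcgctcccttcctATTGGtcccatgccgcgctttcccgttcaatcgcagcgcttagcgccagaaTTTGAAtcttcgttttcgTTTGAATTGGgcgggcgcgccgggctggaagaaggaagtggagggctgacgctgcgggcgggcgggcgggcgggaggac

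INCENP, ECT2, ANLN, CENPA and MKI67 each hold a CHR match in the stretch shown. KIF20A, which fell, and AURKB, which rose, hold CCAAT matches and no CHR match. The AURKB stretch lies inside the counted gene, so it cannot show whether a CHR match stands before the start of the counted transcript. In INCENP the CHR match begins 10 bases before the start, behind 3 CCAAT matches that begin 107, 71 and 28 bases before it. CENPA has its CHR match 18 bases before the start. ANLN carries matches on both strands, 26 and 20 bases before its start, and no CCAAT match in the window.

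**Figure D4:**
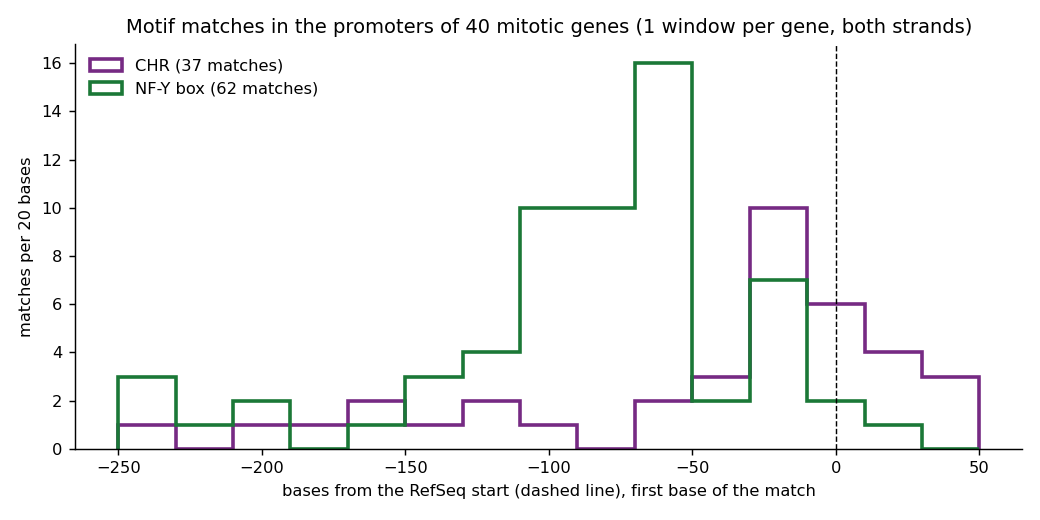
Number of matches per 20 bases (vertical axis) by distance from the most upstream RefSeq start (horizontal axis, in bases), for the CHR (purple) and for the CCAAT box bound by NF-Y (green), 1 window for each of 40 mitotic genes. Of 37 CHR matches 26 begin within 50 bases of the start, and 40 of 62 CCAAT matches begin between 130 and 50 bases before it.

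Beyond the members, 6 lists of cell-cycle genes, with no member among them, were counted in the same test. Of 126 genes in all, each of them tested, 36 fell (28.6%) and 13 rose (10.3%), with a median log2 fold change of -0.05. With library totals 26 of them fell and 27 rose. Among 29 other mitotic regulators 13 fell and 1 rose, the largest share of falls of the lists counted. CDCA2, which brings phosphatase PP1 to anaphase chromosomes, fell by 0.85 ± 0.050, the F-box cyclin CCNF by 0.67 ± 0.054, and CIT, the citron kinase of the midbody, by 0.44 ± 0.046 on the log2 scale (edgeR adjusted p between 1.06e-05 and 1.94e-04). HMMR, a spindle protein that also binds hyaluronan, rose (0.44 ± 0.044, edgeR adjusted p = 1.42e-04). Of 29 other centromere and kinetochore genes 7 fell and 1 rose: HJURP, the chaperone that deposits CENPA, was among the falls (-0.32 ± 0.043), as were CENPT (-0.34 ± 0.057) and SPDL1 (-0.29 ± 0.049), and MIS18A, which prepares centromeres for new CENPA, rose (0.17 ± 0.049).

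The other 4 lists held fewer falls in count, but they are smaller. By share, 30.8% of DREAM and MuvB genes and 29.4% of condensin and cohesin genes fell. Both lay above the 24.1% of the other centromere and kinetochore list. In the anaphase-promoting complex 16.7% fell, near the 15.8% of all genes tested. The share for S-phase genes lay between 16.7% and 24.1%. In the anaphase-promoting complex 3 of 18 genes fell and 4 rose, with CDC27 (-0.45 ± 0.038), CDC16 (-0.21 ± 0.042) and ANAPC15 (-0.40 ± 0.081) lower and CDC23 (0.26 ± 0.047), ANAPC1 (0.26 ± 0.062) and ANAPC5 (0.16 ± 0.050) among the higher. In condensin and cohesin 5 of 17 fell, led by the condensin II subunit NCAPG2 (-0.26 ± 0.039), and 3 rose, led by the cohesin regulator PDS5A (0.19 ± 0.042). Of 13 DREAM and MuvB genes 4 fell, among them RBBP4 (-0.28 ± 0.040), LIN37 (-0.48 ± 0.12) and MYBL2 (-0.17 ± 0.044), and 2 rose, TFDP1 (0.24 ± 0.043) and RBL1 (0.14 ± 0.041). Among 20 S-phase genes 4 fell and 2 rose: the replicative helicase subunits MCM6 (-0.58 ± 0.042) and MCM4 (-0.31 ± 0.037) and the licensing factor CDC6 (-0.27 ± 0.058) fell, and cyclin E1, CCNE1 (0.43 ± 0.067), and the repair glycosylase UNG (0.27 ± 0.053) rose. Whether the members differ from these lists was not tested.

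**Figure D5:**
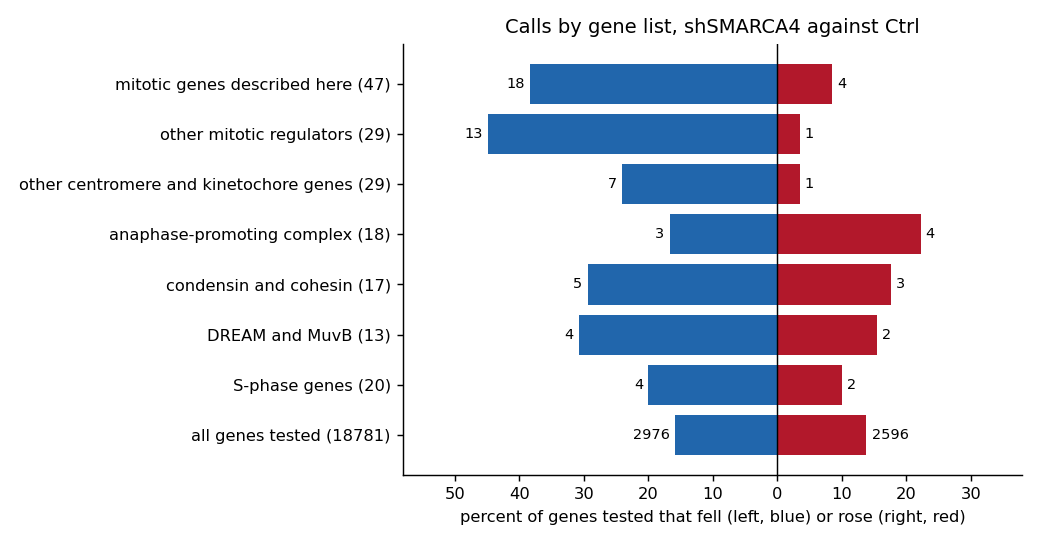
Percent of genes tested that fell (blue, to the left) or rose (red, to the right) in shSMARCA4 against Ctrl cells, with the number of genes at each bar and the number tested in brackets. The mitotic genes described here show 18 falls and 4 rises of 47, and the bottom bar gives all 18781 genes tested, with 2976 falls and 2596 rises.

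Counting ignored strand, so reads of genes that overlap a member were not separated. Besides PRC1, NUSAP1 and PLK1, at least 5% of exon bases were shared with another gene in GENCODE release 29 for SGO1 (17.7%, antisense), FOXM1 (15.9%, ITFG2), BUB1B (10.2%, the read-through BUB1B-PAK6), CCNA2 (9.08%, EXOSC9), CDC25C (8.78%, FAM53C) and CENPA (6.96%, SLC35F6). INCENP and ECT2 shared none. Pseudogenes and the near-identical retrogene KIF4B held few counts, at most 25 in a shSMARCA4 library and 32 in a Ctrl library, both for CDC20P1.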

How the data were processed

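RNA-seq of FT190 cells was analysed in 2 shSMARCA4 and 2 Ctrl libraries, grouped by sample title. The members and gene lists were chosen with earlier results of these data known. The deposited values are raw counts per gene; per the file headers, the authors counted reads with HOMER over exons of GENCODE release 45 on hg38, on both strands, keeping 1 transcript per gene, without normalization. Per the submitters' processing notes, STAR 2.6.1c and DESeq2 1.19.38 were among the tools. A command line in the table lists 6 libraries, of which the 4 with values were used.

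Genes were kept by filterByExpr (count minimum 10), scaled by trimmed means of M values and tested two-sided with edgeR 4.0.16 (glmQLFit, glmQLFTest; R 4.3.3), with Benjamini-Hochberg adjustment over 18781 genes. A standard error was taken as the size of the log2 change over the root of its F statistic. CPM values use scaled library totals. Lengths are those of the deposited table. The biological coefficient of variation was 0.0413. Replicate counts differed beyond sampling noise (chi-square over its degrees of freedom 1.88 in shSMARCA4 and 6.33 in Ctrl), so each library counted once. The fitting steps were tested on simulated data. Alternatives were other scalings, other filters, DESeq2 1.42.0, limma-voom (limma 3.58.1), protein-coding genes, a replicate block and each library left out. Full values are given for members called, at most the 15 with the smallest adjusted p in a direction. In the other lists they are given for up to 3 genes per direction, and besides for WEE1 and PKMYT1.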

Additional observations from a re-analysis of the deposited data

How the results depend on the processing

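SMARCA4 fell in all 13 alternatives run. With library totals the members' median was -0.053, against -0.103 in the main fit, and 26 genes of the other cell-cycle lists fell and 27 rose, against 36 and 13. With no filter on low counts 9 members fell and 0 rose (edgeR's quasi-likelihood test over 35109 genes), and 19 genes of the other lists fell and 4 rose. With DESeq2 13 members fell and 2 rose, and 24 genes of the other lists fell and 7 rose. With the replicate block 24 members fell and 5 rose, and 39 genes of the other lists fell and 22 rose; BUB1B, CDC20, CCNA2, CCNB1, CDK1, KIF20B and SGO2 passed there and not in the main fit. The same-numbered libraries had a correlation of deviations of 0.0754 across genes, and the numbers were not taken as pairs. With 1 library left out, 7 to 25 members fell and 0 to 6 rose, 19 to 46 genes of the other lists fell and 6 to 25 rose, the members' median ran from -0.124 to -0.076 and SMARCA4 from -2.293 to -2.189; a lone library was then assumed to vary like the other group. Of the 18 members that fell, 7 kept their call in all alternatives, as did 0 of the 4 that rose; 6 of the 25 others stayed outside the threshold with the same sign. Signs turned only for members with no call: BUB1 stood at 0.003, 0.013, 0.048, 0.002, 0.003 and 0.004 with RLE, upper-quartile factors, library totals, no filter, DESeq2 and protein-coding genes, TTK at 0.000, 0.011, 0.045, 0.000 and 0.002 with RLE, upper-quartile factors, library totals, DESeq2 and protein-coding genes, and KIF2C and NUF2 at 0.009 and 0.027 with library totals. With 1 library left out, BUB1 ran from -0.019 to 0.023, TTK from -0.027 to 0.026, CDCA8 from -0.032 to 0.054 and ASPM from -0.004 to 0.030. The cause of these changes was not tested. Standard errors were wider for members of few counts, 0.077 for CENPA and 0.071 for CDC25C against 0.037 for TOP2A, so smaller changes were detectable in abundant members.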
